A study of Mus musculus with 47 samples.

Results

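What changes in the PFC of mice that never breathed ethanol, between the end of their last stay in the chamber and a harvest days later, was asked by setting the air-control mice harvested at once, Ctrl 0h (6 mice), against those harvested late, Ctrl 72h (6 mice) and Ctrl 7d (6 mice). These 18 mice were chosen by their titles out of 47 in the series, and all 18 belong to repeat group 1. All mice were adult male C57BL/6J, and each array holds the medial PFC of 1 mouse. Ctrl mice received saline and pyrazole, an inhibitor of alcohol dehydrogenase, at 1 mmol/kg by intraperitoneal injection, and were then kept in air-filled inhalation chambers. A cycle had 4 days with 16 hours of chamber time each and then 7 days outside, and cycles were repeated. Mice with chronic intermittent ethanol (CIE) were handled in the same way with pyrazole and an ethanol injection, with ethanol vapor in the chamber air (10 to 13 mg/l). They give the same contrast in other mice (CIE 0h, 6 mice, against CIE 72h and CIE 7d, 12 mice). Pyrazole, saline injection, handling and the chamber were thus common to all Ctrl groups, which differ in the time since the last session. No group was left without pyrazole or outside the chambers, so recent injection, handling and chamber stay cannot be told apart here. The hour of the day of each harvest is not given in the sources used here.

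Several known programs can shift within hours in cortex. Immediate early genes are transcribed within minutes of neuronal activity and include transcription factors and the phosphatase gene Dusp1, which switches MAP kinases off. The unfolded protein response raises chaperones of the endoplasmic reticulum (ER) when folding demand rises, through factors that bind the ER stress response element. Enzymes that oxidize, reduce or conjugate foreign chemicals, among them aldehyde oxidase and glutathione S-transferases, are often induced by the compounds themselves, in part through the factor NRF2. Clock output genes such as Dbp rise and fall over the day.

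The values are log2 intensities, with array medians between 6.39 and 6.42, and 0 pairs of arrays were identical. Precision is limited by the number of arrays. Cortical neuron markers were present in the 18 mice, with means of 13.69 for Camk2a, 10.86 for Neurod6, 10.32 for Tbr1 and 9.52 for Slc17a7. The dopamine receptor gene Drd2 and the hemoglobin gene Hba-a1 were low at 4.95 and 4.72. Another dopamine receptor gene, Drd1, was not low at 9.70, above Slc17a7, and the choroid plexus gene Ttr read 7.31. Because whole tissue was used, fewer cells of a type and less RNA per cell cannot be told apart. Below, a gene "rose" or "fell" when it was higher or lower in Ctrl 0h than in the late groups at FDR ≤ 0.01, and differences are Ctrl 0h minus late Ctrl on the log2 scale.

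Some arrays stood apart in ways that bear on the counts. Probesets of mean log2 under 6, called dim here, split the Ctrl arrays along 1 axis. An array score was built from it, as the mean of 500 dim probesets at one end minus that of 500 at the other, with weights from the first principal component among the Ctrl 7d mice (38.9% of their variance). All 6 Ctrl 0h mice scored between 0.316 and 0.49, whereas the Ctrl 72h mice scored between -0.458 and -0.005. Of the Ctrl 7d mice, mice 18 and 22 scored 0.607 and 0.691, above every Ctrl 0h mouse, and the other 4 between -0.714 and -0.361. The 29 arrays of Ctrl 8h and of all CIE groups lay between -0.182 and 0.099. The hybridization batch of each array is not given in the sources used here, and its part in this split was not tested. The last array that stood apart was Ctrl 0h mouse 12, which had the score of its group (0.395) but late-harvest levels of many brighter genes, as given below.

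**Figure D1:**
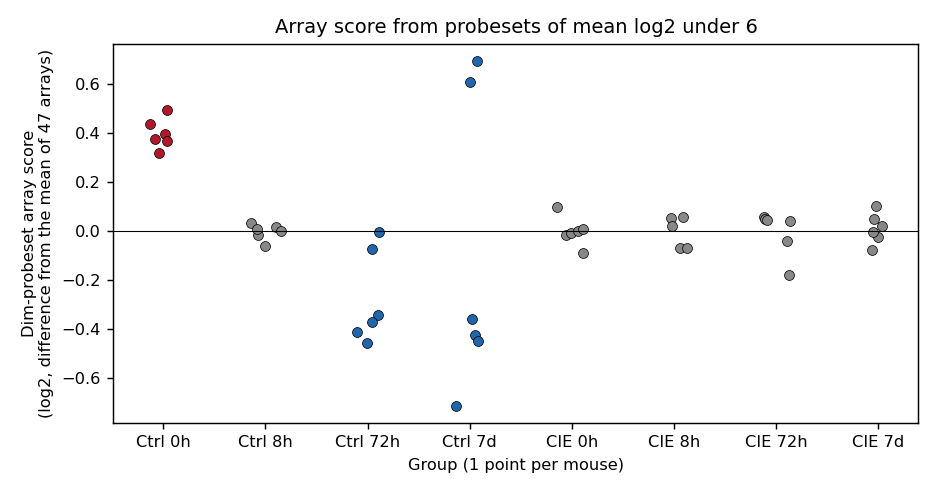
Array score (y axis, log2, difference from the mean of all arrays) of each mouse by group (x axis), with 1 point per mouse, Ctrl 0h in red, the late Ctrl groups in blue and other groups in grey. The 6 Ctrl 0h mice and Ctrl 7d mice 18 and 22 lie between 0.316 and 0.691, 10 late Ctrl mice lie below 0, and the 29 other arrays lie near 0.

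Between Ctrl 0h and late Ctrl, 1052 of 45037 probesets differed (2.34%), of which 561 rose (1.25%) and 491 fell (1.09%), covering 737 named genes. The changes were small, with a median size of 0.38 among those called, 187 over 0.5 and 4 over 1. Dim probesets made up 79.5% of the calls and 45.2% of all probesets, so that 4.11% of dim probesets and 0.875% of the brighter ones were called. Without mice 18 and 22 of Ctrl 7d, 2615 probesets passed (78.5% dim). These mice were left out after their scores, on the Ctrl 0h side, were seen. A higher count without them was set in part by that choice and is no separate support. With the array score as a term in the fit, which also removes whatever part of the time difference moves with it, 0 passed at FDR ≤ 0.01 in limma, 2 at FDR ≤ 0.05 and 4652 at an unadjusted p ≤ 0.05. Without Ctrl 0h mouse 12, 964 passed, 777 of them shared with the full set, and 18 when the score was then added. With only the 18 arrays of these groups in the fit, 100 passed, with 7 of the 24 leading genes among the calls, and leaving out 1 mouse at a time gave between 603 (without Ctrl 0h mouse 48) and 1668 (without Ctrl 7d mouse 18). None of the genes described below therefore keeps its call with the score and all mice in the fit, where the adjusted p of those called lies between 0.024 for Aox1 and 0.74 for Isg20. With the score and without mouse 12, Aox1, Etnppl, Gstm1, Mgst1, Gpr17, Nrarp, Gm11627 and Ephx1 passed, as did a brighter Mt1 probeset that may read other genes too (0.38, adjusted p = 0.0031). Mouse 12 was left out after its values were seen. In genes where it lay among the late mice, a larger difference without it was set by that choice and is no separate support. Leaving out mouse 12 alone ended the calls of Dusp1, Mt1, Isg20, Tyms and Tll2. The calls of Mt1 and Isg20 were lost in 14 of the fits that left out 1 mouse, those of Hsp90b1 and Fzd2 in 13, and those of Ifi47 and Tyms in 12.

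The late groups were read separately as well. Ctrl 0h differed from Ctrl 72h at 986 probesets (2.19%; 518 rose and 468 fell) and from Ctrl 7d at 65 (0.144%; 33 rose and 32 fell). Without mice 18 and 22 the count against Ctrl 7d was 1269, and without Ctrl 0h mouse 48 or Ctrl 7d mouse 28 it was 0. The count of 1269 was likewise set in part by leaving out the Ctrl 7d mice that scored like Ctrl 0h. Between the late groups themselves, Ctrl 7d against Ctrl 72h, 1 probeset passed (0.00222%), which fell and has no single gene name, with 2177 at an unadjusted p ≤ 0.05. Both comparisons with a late group use the same Ctrl 0h mice, so their values are set side by side without reading their likeness as a result.

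The largest rise was that of a detoxifying enzyme. Aox1, aldehyde oxidase, which oxidizes aldehydes and many drug-like ring compounds, read 8.91, 7.04, 8.91, 9.01, 8.96 and 8.92 in Ctrl 0h mice 2, 12, 20, 48, 56 and 78. The Ctrl 72h mice read between 7.37 and 8.08, and the Ctrl 7d mice between 7.09 and 7.53. Apart from mouse 12, which lay below every late mouse, the Ctrl 0h mice were all above the 12 late mice. The fold over late mice was 2.23 (log2 difference 1.16, SE 0.18, adjusted p = 0.00015), with 0.98 against Ctrl 72h (adjusted p = 0.0025) and 1.33 against Ctrl 7d (adjusted p = 0.0018). Without mouse 12, left out after its value here was seen, the log2 difference was 1.48 (adjusted p = 9.4e-10). With the score added to that fit it was 1.63 (adjusted p = 3.8e-08). Ctrl 8h mice averaged 8.26, with 7.68, 8.05 and 7.82 in repeat group 2 and 8.43, 8.71 and 8.85 in repeat group 1. CIE mice had the same contrast (1.38, adjusted p = 1.6e-06), and the Ctrl and CIE differences were not distinguishable (adjusted p = 0.68).

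Glutathione-linked enzymes followed Aox1. Gstm1, a cytosolic glutathione S-transferase, read 10.70, 9.45, 10.38, 10.53, 10.50 and 10.36 in Ctrl 0h mice 2, 12, 20, 48, 56 and 78, against 9.67 to 10.15 in Ctrl 72h mice and 9.31 to 9.71 in Ctrl 7d mice. Again mouse 12 alone sat among the late mice. The difference was 0.64 (SE 0.11, adjusted p = 0.00029), and 0.82 against Ctrl 7d (adjusted p = 0.0018) beside 0.46 against Ctrl 72h (adjusted p = 0.017). Gstm1 has near-identical relatives, so its probesets may also read these. Mgst1, a membrane-bound microsomal glutathione S-transferase, averaged 9.30 ± 0.60 at 0h (SD, n = 6) and 8.47 ± 0.40 in late mice (SD, n = 12), a difference of 0.82 (SE 0.18, adjusted p = 0.0045). Its value in mouse 12 was 8.09, beside 9.40 to 9.73 in the other Ctrl 0h mice and 8.02 to 9.21 in late mice. With mouse 12 left out after these values were seen and the score added, the differences were 0.85 (adjusted p = 2.3e-05) and 1.30 (adjusted p = 0.00087).

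Further enzymes with the same direction were smaller or fell short of the threshold. Cbr3, a carbonyl reductase, rose by 0.48 (adjusted p = 0.0023), and Pir, a nuclear iron protein induced through NRF2, by 0.34 (adjusted p = 0.0034). These genes, with Ephx1, were chosen after their values were seen. Ephx1, microsomal epoxide hydrolase, averaged 9.06 ± 0.46 at 0h and 8.54 ± 0.24 in late mice (SD, n = 6 and 12; adjusted p = 0.011), and passed without mouse 12 (0.69, adjusted p = 0.00063). Aldh7a1, an aldehyde dehydrogenase of lysine breakdown, rose by only 0.24 (adjusted p = 0.00054), but its 6 Ctrl 0h values (10.25 to 10.47) lay wholly above the 12 late values (10.02 to 10.23). Acss2, which makes acetyl-CoA from acetate, rose by 0.27 (SE 0.06, adjusted p = 0.0053).

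As lists, these enzymes moved little beyond the named members. Of 18 measured alcohol and xenobiotic metabolism genes 2 rose and 0 fell, with a median difference of 0.07, and of 23 metallothionein and antioxidant genes 2 rose (Gstm1 and Mt1) and 0 fell, with a median of 0.10. Over all 18193 genes read by their brightest probeset, 1.19% rose, 0.907% fell, and the median was 0.01. Aox1, Mgst1, Cbr3 and Pir are in neither list. The core of the antioxidant response element, TGACNNNGC on either strand, is common, at 10.2% of 32851 promoters over the 250 bases before the start. Mgst1 and Pir each had 1 match, and Aox1, Gstm1 and Cbr3 had none. It occurred in 2 of 16 alcohol and xenobiotic metabolism genes and 6 of 21 metallothionein and antioxidant genes with a promoter sequence. Mt1, a metal-binding metallothionein, averaged 6.21 ± 0.14 at 0h and 5.83 ± 0.20 in late mice (SD, n = 6 and 12; difference 0.38, adjusted p = 0.0098).

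Etnppl, an astrocyte enzyme that breaks down phosphoethanolamine, rose nearly as much as Aox1. It read 10.79, 9.03, 10.52, 10.78, 10.42 and 10.74 in Ctrl 0h mice 2, 12, 20, 48, 56 and 78, against 9.05 to 10.05 in Ctrl 72h and 9.06 to 9.47 in Ctrl 7d mice. Leaving mouse 12 aside, the groups did not overlap. The difference was 1.07 (SE 0.19, adjusted p = 0.00058) in Ctrl mice and 1.47 in CIE mice (adjusted p = 1.8e-06). With mouse 12 left out after its value was seen and the score added, the Ctrl difference was 1.38 (adjusted p = 0.00086). Astrocyte markers as a list went the other way in 12 of 14 genes, with a median of -0.08 and 0 passing.

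**Figure D2:**
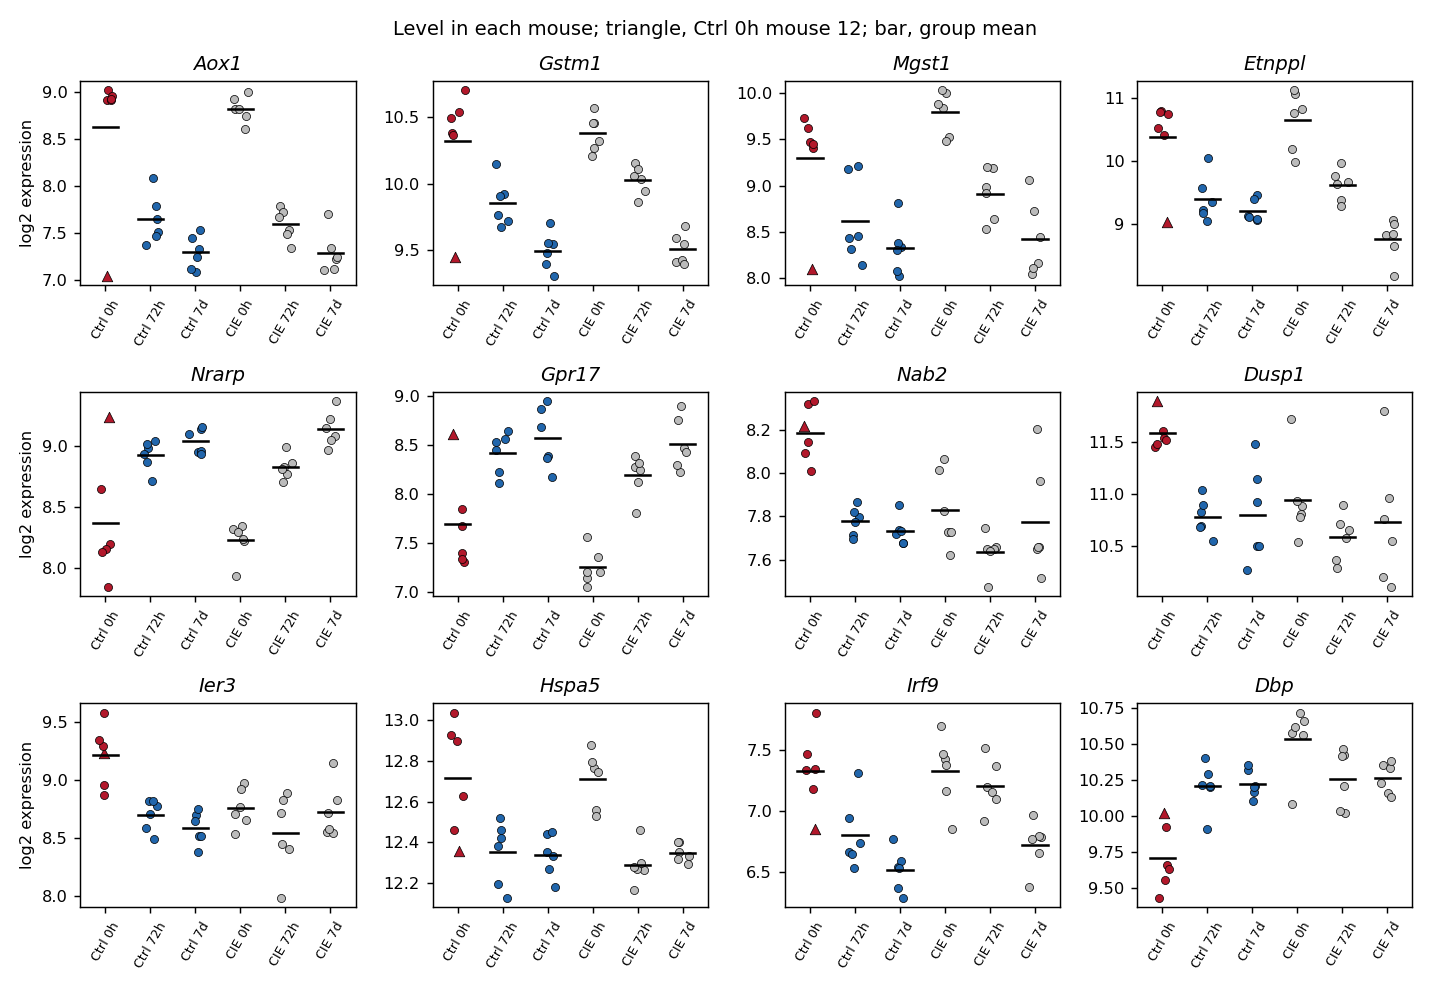
Level (y axis, log2 expression) of 12 genes in each mouse of the Ctrl and CIE groups at 0h, 72h and 7d (x axis), with bars at group means and a triangle for Ctrl 0h mouse 12. In Aox1, Gstm1, Mgst1, Etnppl, Nrarp and Gpr17 the triangle lies among or beyond the late Ctrl mice, whereas in Nab2, Dusp1 and Ier3 it lies with the other Ctrl 0h mice.

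ER chaperones were modestly higher at 0h. Of 28 genes of ER folding and the unfolded protein response, 3 rose and 0 fell on their brightest probeset (1.19% and 0.907% of all genes), and 21 were positive (53.1% of all genes). The median was 0.152, beside 0.155 in CIE mice with 8 rising and 1 falling (4.69% and 2.58% of all genes there). Hspa5 (BiP), the central ER chaperone, read 12.62, 12.36, 12.46, 13.04, 12.93 and 12.90 in Ctrl 0h mice 2, 12, 20, 48, 56 and 78, against 12.12 to 12.52 in Ctrl 72h and 12.18 to 12.45 in Ctrl 7d mice. Mice 12 and 20 thus overlapped with the late mice and the other 4 did not. The difference was 0.38 (SE 0.09, adjusted p = 0.0048; 0.39 in CIE mice, adjusted p = 0.0014).

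Manf, a secreted ER-stress protein with trophic action, rose by 0.41 (adjusted p = 0.0030), with 10.82 to 11.45 at 0h and 10.51 to 10.88 in late mice. Hsp90b1 (Grp94), an ER chaperone of the HSP90 family, rose by 0.23 (adjusted p = 0.0084). Derl3, a component of the route that moves misfolded proteins out of the ER, was no member of the list and rose most, by 0.74 (SE 0.14, adjusted p = 0.00091). It read 6.67 to 7.41 in Ctrl 0h mice and 6.01 to 6.71 in late mice, where 1 late mouse, Ctrl 7d mouse 18, overlapped. In CIE mice Derl3 rose by 1.04 (adjusted p = 2.1e-06). With the score added, the differences of Hspa5, Manf, Hsp90b1 and Derl3 were 0.39, 0.37, 0.29 and 0.60, and none passed (adjusted p between 0.16 and 0.26).

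The promoters of these ER genes are shown because the ER stress response element, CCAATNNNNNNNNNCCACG on either strand, is rare. It occurs in 0.113% of 32851 RefSeq promoters over the 250 bases before the start, and in 8 of the 25 list genes with a promoter sequence. The first share counts promoters and the second genes. The list was made up of ER folding and unfolded protein response genes, so its share describes the list and not the change at 0h. Of 24 genes looked up, 20 had a sequence, and Manf was not among them. The runs below lie at chr2:34771840-34772089 (plus strand), chr10:75893148-75893397 (plus strand) and chr10:86705445-86705694 (minus strand) of GRCm38.p6, 5′ to 3′, ending at the base before the transcription start, with the element's fixed letters in capitals.
Hspa5: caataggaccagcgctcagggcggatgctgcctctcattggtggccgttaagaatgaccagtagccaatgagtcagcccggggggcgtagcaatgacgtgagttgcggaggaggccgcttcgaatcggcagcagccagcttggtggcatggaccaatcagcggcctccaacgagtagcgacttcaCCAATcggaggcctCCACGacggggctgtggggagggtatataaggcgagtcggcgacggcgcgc
Derl3: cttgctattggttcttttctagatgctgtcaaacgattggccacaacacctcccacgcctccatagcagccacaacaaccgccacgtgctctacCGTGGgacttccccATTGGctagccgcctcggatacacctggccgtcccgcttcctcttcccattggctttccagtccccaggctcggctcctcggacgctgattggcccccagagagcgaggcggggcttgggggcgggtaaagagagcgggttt
Hsp90b1: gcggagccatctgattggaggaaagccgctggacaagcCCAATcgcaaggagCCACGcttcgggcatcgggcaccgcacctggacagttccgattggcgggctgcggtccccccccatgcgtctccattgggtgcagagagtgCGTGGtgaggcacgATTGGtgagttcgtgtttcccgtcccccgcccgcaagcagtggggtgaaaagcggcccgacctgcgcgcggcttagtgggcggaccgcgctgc
The match begins 65 bases before the start in Hspa5 and 156 bases before it in Derl3, there on the minus strand, and Hsp90b1 has 2 matches, at 212 and 107 bases, the nearer one on the minus strand. A match is a run of letters, not a measured binding site.

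Immediate early genes mostly read higher at 0h in Ctrl mice. Of 44 measured genes 42 were positive (53.1% of all genes), with a median of 0.34, but only 2 rose at the threshold, Dusp1 and Ier3 (1.19% of all genes). In limma 21 of the 44 had an unadjusted p ≤ 0.05, as did 9635 of all 45037 probesets. Dusp1 read 11.61, 11.89, 11.54, 11.45, 11.48 and 11.52 in Ctrl 0h mice 2, 12, 20, 48, 56 and 78, against 10.55 to 11.04 in Ctrl 72h mice and 10.27 to 11.48 in Ctrl 7d mice. Only Ctrl 7d mouse 46 reached the range of the Ctrl 0h mice, and mouse 12 was here the highest. The difference was 0.79 (SE 0.18, adjusted p = 0.0047), with 0.80 against Ctrl 72h (adjusted p = 0.013) and 0.78 against Ctrl 7d (adjusted p = 0.043). Without mouse 12 it was 0.73 (adjusted p = 0.015), and with the score 0.89 (adjusted p = 0.17).

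Ier3, an early gene that dampens cell death signals, rose by 0.57 (SE 0.12, adjusted p = 0.0031), and its Ctrl 0h values (8.88 to 9.59) did not overlap with the late values (8.38 to 8.82). Nab2, the co-repressor that restrains the EGR factors, and Ier5l were chosen after their values were seen. Nab2 read 8.14, 8.22, 8.09, 8.32, 8.01 and 8.33 in Ctrl 0h mice 2, 12, 20, 48, 56 and 78, against 7.70 to 7.87 in Ctrl 72h and 7.68 to 7.85 in Ctrl 7d mice. Its groups were fully apart, mouse 12 included, with a difference of 0.43 (SE 0.07, adjusted p = 0.00037). Ier5l rose by 0.46 (adjusted p = 0.0024) without overlap, but its brighter probeset differed by 0.24 (adjusted p = 0.50). Among known activity genes that did not pass, Arc differed by 1.17 (adjusted p = 0.019) and Fos by 0.86 (SE 0.32, adjusted p = 0.095), where 3 late mice reached into the Ctrl 0h range.

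CIE mice mostly read lower at 0h in this list. Their 0h minus late median was -0.24, with 2 genes rising and 5 falling, and in 7 genes the Ctrl difference was higher than the CIE difference at FDR ≤ 0.01, against 1 in the opposite direction (0.989% and 1.35% of all genes). Dusp4, which also switches MAP kinases off, differed by 0.64 in Ctrl mice (adjusted p = 0.025) and -0.50 in CIE mice (adjusted p = 0.057), and the 2 differences were distinct (adjusted p = 0.0050). Npas4, an activity-dependent transcription factor, differed by 0.63 (adjusted p = 0.15) in Ctrl and -0.97 (adjusted p = 0.012) in CIE mice, with adjusted p = 0.0073 for the contrast of both. In the mean level of the list, the Ctrl 0h mice ranged from 8.89 to 9.59, the Ctrl 72h mice from 8.70 to 8.96 and the Ctrl 7d mice from 8.62 to 9.09. Mouse 12 was the highest of all, at 9.59.

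The promoter of Dusp1 is given because it is the early gene with the largest called rise and one of 4 among 33 with the full cAMP response element, TGACGTCA, which is its own reverse complement and occurs in 1.55% of promoters. It lies at chr17:26508473-26508722 (minus strand, GRCm38.p6), with the element in capitals, 143 bases before the start.
Dusp1: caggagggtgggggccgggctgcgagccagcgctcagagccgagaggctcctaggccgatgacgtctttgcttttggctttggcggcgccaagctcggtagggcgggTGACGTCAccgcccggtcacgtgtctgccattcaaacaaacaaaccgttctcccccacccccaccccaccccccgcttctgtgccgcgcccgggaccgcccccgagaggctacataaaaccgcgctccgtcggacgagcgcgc
Ier3 and Nab2 hold no such run in their 250 bases.

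Genes of the interferon response were mostly positive and varied between mice. Of 31 measured genes, 27 were positive with a median of 0.385, and 1 rose and 1 fell, where 1.19% and 0.907% of all genes did so. In CIE mice the median was 0.60 with 13 rising, where 4.69% of all genes rose. Irf9, the DNA-binding subunit of the interferon-activated factor ISGF3, read 7.18, 6.85, 7.81, 7.34, 7.35 and 7.47 in Ctrl 0h mice 2, 12, 20, 48, 56 and 78, against 6.53 to 7.32 in Ctrl 72h mice and 6.29 to 6.77 in Ctrl 7d mice. Only 2 late mice lay within the Ctrl 0h range. The difference was 0.67 (SE 0.14, adjusted p = 0.0017), of which 0.82 against Ctrl 7d passed (adjusted p = 0.0072) and 0.53 against Ctrl 72h did not (adjusted p = 0.032).

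Ifi47, an interferon-inducible GTPase outside the list, rose by 0.86 (adjusted p = 0.0081), with 6.72, 6.03, 7.51, 7.62, 7.87 and 6.77 in Ctrl 0h mice 2, 12, 20, 48, 56 and 78, against 5.82 to 6.78 in late mice. Ctrl 0h mice 2, 12 and 78 thus overlapped with the late mice, and in fits without 1 mouse the adjusted p reached 0.041. Ifit1bl1, a relative of the interferon-induced Ifit1 chosen after its value was seen, rose by 0.42 (adjusted p = 0.0061). Isg20, an interferon-induced exonuclease at dim levels, fell by 0.45 (adjusted p = 0.0091), and by 0.11 with the score (adjusted p = 0.74). Genes of antigen presentation had a median of 0.38 over 16 genes, of which 0 passed, compared to 1.05 and 8 rising in CIE mice (4.69% of all genes there). Psmb8, an immunoproteasome subunit, showed the spread, with 7.50, 7.38, 9.17, 8.32, 8.44 and 7.61 in Ctrl 0h mice, 6.92 to 8.55 in Ctrl 72h mice and 6.94 to 7.27 in Ctrl 7d mice (difference 0.80, adjusted p = 0.058). The high Ctrl 72h value was that of mouse 24.

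Dbp, a clock-controlled transcription factor whose RNA cycles over the day, fell. It read 9.56, 10.02, 9.66, 9.43, 9.93 and 9.64 in Ctrl 0h mice 2, 12, 20, 48, 56 and 78, against 9.91 to 10.40 in Ctrl 72h and 10.10 to 10.35 in Ctrl 7d mice. A single late mouse, Ctrl 72h mouse 44, lay within the Ctrl 0h range. The difference was -0.51 (SE 0.11, adjusted p = 0.0025). CIE 0h mice were instead at 10.08 to 10.72, with a CIE difference of 0.27 (adjusted p = 0.078), and the Ctrl and CIE differences were distinct (adjusted p = 0.0012). Of 23 clock genes Dbp alone passed on its brightest probeset, where 2.1% of all genes passed, and the median was -0.08. Per3 fell on another of its probesets. Cirbp, the cold-inducible RNA-binding protein, differed by -0.24 without passing.

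Gpr17, a receptor that marks oligodendrocyte precursors about to differentiate, fell. It read 7.85, 8.62, 7.39, 7.30, 7.67 and 7.33 in Ctrl 0h mice 2, 12, 20, 48, 56 and 78, against 8.11 to 8.65 in Ctrl 72h and 8.18 to 8.94 in Ctrl 7d mice. With mouse 12 aside, every Ctrl 0h mouse was below every late mouse. The difference was -0.80 (SE 0.15, adjusted p = 0.00076), with -0.72 against Ctrl 72h (adjusted p = 0.0068) and -0.88 against Ctrl 7d (adjusted p = 0.0075). With mouse 12 left out after its value was seen and the score added, it was -1.06 (adjusted p = 0.0012). Gpr17 fell by 1.10 in CIE mice. The 9 measured precursor markers, Gpr17 included, were all negative with a median of -0.24, and the other 8 did not pass. In addition, 14 of 15 oligodendrocyte and myelin markers were negative with a median of -0.18 and 0 passing. CIE medians for these lists were -0.075 and 0.03.

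Nrarp, a feedback inhibitor that is itself a Notch target, and Fzd2, a Wnt receptor, were chosen after their values were seen. Nrarp read 8.64, 9.23, 8.19, 7.84, 8.15 and 8.13 in Ctrl 0h mice 2, 12, 20, 48, 56 and 78, against 8.71 to 9.04 in Ctrl 72h and 8.94 to 9.16 in Ctrl 7d mice. Mouse 12 exceeded every late mouse and the other 5 were below all of them. The difference was -0.62 (adjusted p = 0.00058), and -0.84 without mouse 12 and with the score (adjusted p = 8.5e-05). Fzd2 fell by 0.63 (adjusted p = 0.0083) and to a like degree in CIE mice (-0.93, adjusted p = 5.9e-05), but by 0.33 with the score (adjusted p = 0.52).

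Grin2c, the NMDA receptor subunit NR2C, was the only one of 20 glutamate receptor genes that passed on its brightest probeset, where 2.1% of all genes passed. Grik3 fell on another of its probesets. Grin2c averaged 7.94 ± 0.30 at 0h and 8.42 ± 0.18 in late mice (SD, n = 6 and 12; difference -0.48, adjusted p = 0.0045). Tmem40, a membrane protein, fell by 0.83 (adjusted p = 0.0036), with 6.55 to 7.82 at 0h and 7.37 to 8.53 in late mice. Gpam, the first enzyme of triglyceride synthesis, and Chga, chromogranin A of secretory granules, fell by 0.34 and 0.31 (adjusted p = 0.0024 and 0.0026), and were chosen after their values were seen. Gm11627, an uncharacterized gene, fell most, by 1.03 (SE 0.16, adjusted p = 0.00015), and by 0.92 without mouse 12 and with the score (adjusted p = 0.0077).

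Of 42 chromatin modifier genes, 1 rose and 1 fell, 19 were positive and 23 negative, and the median was -0.03, while of 17 neurotrophin and trophic factor genes 1 fell, with a median of -0.07 (1.19% of all genes rose and 0.907% fell). Eed, a subunit of the Polycomb repressive complex, rose by 0.21 (adjusted p = 0.0052), with Ctrl 0h mice (9.42 to 9.62) above all late mice (9.14 to 9.40). Hdac1, a histone deacetylase, fell by 0.33 (adjusted p = 0.0019), and by 0.07 with the score (adjusted p = 0.65). Ngfr, the low-affinity neurotrophin receptor at a dim level, fell by 0.48 (adjusted p = 0.0028), and by 0.16 with the score (adjusted p = 0.58). Tyms, thymidylate synthase, fell by 0.27 (adjusted p = 0.0073) at a mean level of 4.13.

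The large changes of dim genes ran along the split between arrays. Coa4, a mitochondrial assembly factor, read 6.57, 5.99, 6.12, 6.09, 6.05 and 6.04 in Ctrl 0h mice 2, 12, 20, 48, 56 and 78, and 4.84 to 5.16 in Ctrl 72h mice. In Ctrl 7d it was 6.02 and 6.32 in mice 18 and 22 and 4.80 to 5.14 in the other 4, while CIE 0h mice read 5.09 to 5.25. Thus mice 18 and 22 had the level of Ctrl 0h mice. The difference of 0.95 (adjusted p = 0.00031) was distinct from that in CIE mice (-0.40, adjusted p = 0.00031 for the contrast of both).

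Others of the 24 leading genes shared this form, with mice 18 and 22 on the Ctrl 0h side of the other 4 Ctrl 7d mice. Nmur2, a neuropeptide receptor, read 4.67 to 4.91 in Ctrl 0h mice, 5.43 to 5.96 in Ctrl 72h mice, 5.13 and 4.86 in Ctrl 7d mice 18 and 22, and 5.75 to 5.96 in the remaining Ctrl 7d mice (difference -0.80, adjusted p = 3.7e-05). Itga3, an integrin subunit, fell by 0.71 (adjusted p = 2.1e-05), with 4.33 and 4.55 in mice 18 and 22 against 5.03 to 5.36 in the other Ctrl 7d mice. In Mtf1, a metal-responsive transcription factor, Ctrl 72h mice 52 and 68 were also low, at 4.16 and 4.30, beside 4.88 to 5.14 in the other Ctrl 72h mice and 3.87 to 4.17 in Ctrl 0h mice. Nat8f5 and Sim2 rose by 0.93 and 0.70 in the same form, and Spg7, Tiam2, Mtf1, Cnnm4, Mideas, Tll2 and Phlda2 fell by 0.84, 0.81, 0.73, 0.68, 0.68, 0.67 and 0.65. On their brightest probesets Spg7, Tiam2, Mtf1, Itga3, Cnnm4 and Mideas did not pass (adjusted p between 0.23 and 0.74). The mean of Tiam2 was just above the limit for dim probesets, at 6.01.

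Zfp189, a zinc finger gene, and Dmp1, an extracellular matrix gene, rose by 0.92 and 0.83 (adjusted p = 0.0036 and 0.0012) and also rose in CIE mice, by 1.11 and 0.72. Dmp1 read 6.33 to 6.93 in Ctrl 0h mice, and among late mice 6.63 and 6.46 in Ctrl 72h mice 52 and 68, 6.48 and 6.28 in Ctrl 7d mice 18 and 22, and 5.54 to 5.76 in the other 8. With the score its difference was 0.40 (adjusted p = 0.45), and that of Zfp189 was 0.87 (adjusted p = 0.26).

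CIE mice give the same times in animals of their own, with a contrast that includes the end of ethanol exposure. There 2754 probesets passed (6.11%). Of the 216 brighter probesets called in Ctrl mice, 145 had the same sign in CIE mice (67.1%), and 46 were called there in the same direction, which is 21.3% of the Ctrl calls and 3.02% of the CIE calls, where 6.17% of all brighter probesets were called in CIE mice in either direction. Of the 836 dim ones, 459 had the same sign (54.9%) and 34 were called in the same direction (4.07% of the Ctrl and 2.76% of the CIE calls), with 6.05% of dim probesets called in CIE mice in either direction. In the opposite direction, 2 of the 216 brighter and 22 of the 836 dim probesets were called in CIE mice. The Ctrl and CIE differences were distinct at 36 of the 216 brighter probesets (16.7%) and at 237 of the 836 dim ones (28.3%), compared to 1.44% and 3.38% of all probesets of these classes. As Ctrl calls were chosen for a large Ctrl difference, a high share with a distinct difference is partly set by that choice.

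**Figure D3:**
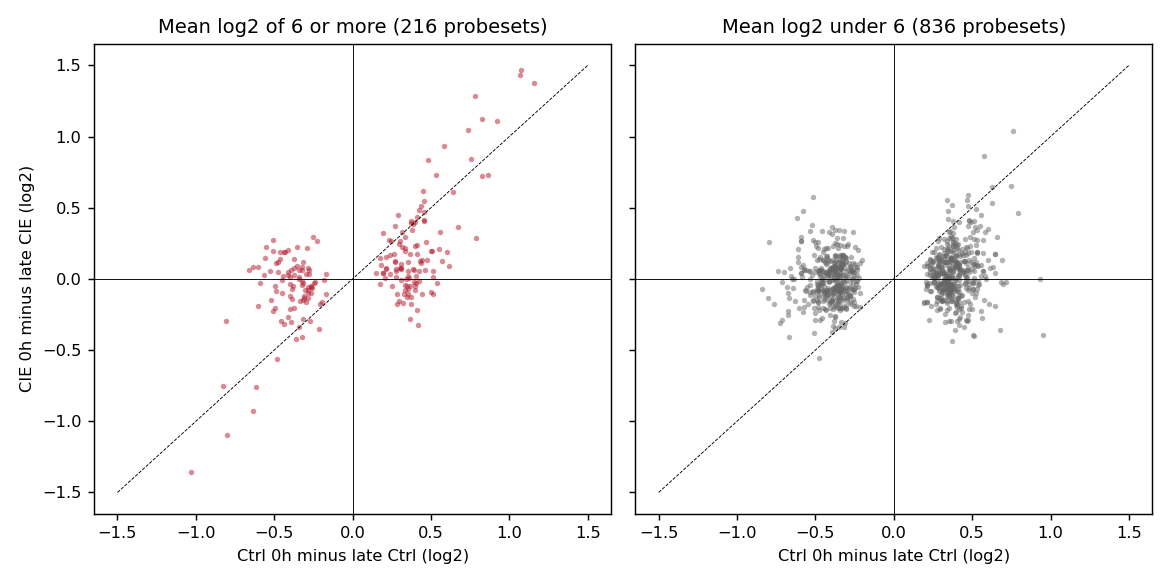
Ctrl 0h minus late Ctrl (x axis, log2) against CIE 0h minus late CIE (y axis, log2) for the probesets called in Ctrl mice, with 1 point per probeset and a dashed line of equal differences. Brighter probesets (left panel, 216) include points near the line up to 1.5, whereas the 836 dim probesets (right panel) lie mostly near 0 on the y axis.

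34 brighter genes were called in both exposures in the same direction, 22 rising and 12 falling. Besides Aox1, Etnppl, Mgst1, Gstm1, Cbr3, Pir, Aldh7a1, the ER genes Hspa5, Manf, Hsp90b1 and Derl3, and the falling Gpr17, Nrarp, Fzd2, Grin2c, Gpam, Chga, Tmem40 and Gm11627, they include Cd302, a lectin receptor (0.46), and Sat1, which acetylates polyamines for breakdown (0.25). With the score in the fit their Ctrl differences kept a median of 0.911 of their size (range 0.366 to 1.278), compared to 0.795 for all brighter and 0.604 for dim called probesets. The score was built from dim probesets, and the 34 genes were chosen for a like call in CIE mice. This order is therefore partly set by those choices. None of the 34 passed in that fit at FDR ≤ 0.01.

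Ctrl 0h mouse 12 read like a late mouse in these 34 genes. In 29 of them it lay within or past the range of the 12 late Ctrl mice, whereas each other Ctrl 0h mouse did so in 3 to 6 genes. Against the same 12 late Ctrl mice, each CIE 0h mouse did so in 3 to 8 genes. With all 6 mice, 2 of the 34 genes (Aldh7a1 and Naa40) were fully separate between Ctrl 0h and late, and without mouse 12 it was 20. The genes were chosen partly on the values of mouse 12, and the pattern was noticed after seeing them. Without it, 63 brighter genes were called in both exposures (48 rising and 15 falling) out of 214 called in Ctrl mice. The ER list then had 6 rising genes of 28 in place of 3, and the interferon list 5 of 31 in place of 1. The immediate early list had 1 of 44 (Ier3) in place of 2, with a median of 0.24 in place of 0.34. Of all 45037 probesets 555 rose, in place of 561, which counts probesets, whereas the lists count genes by brightest probeset. Whether mouse 12 was harvested at the labelled time was not tested.

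**Figure D4:**
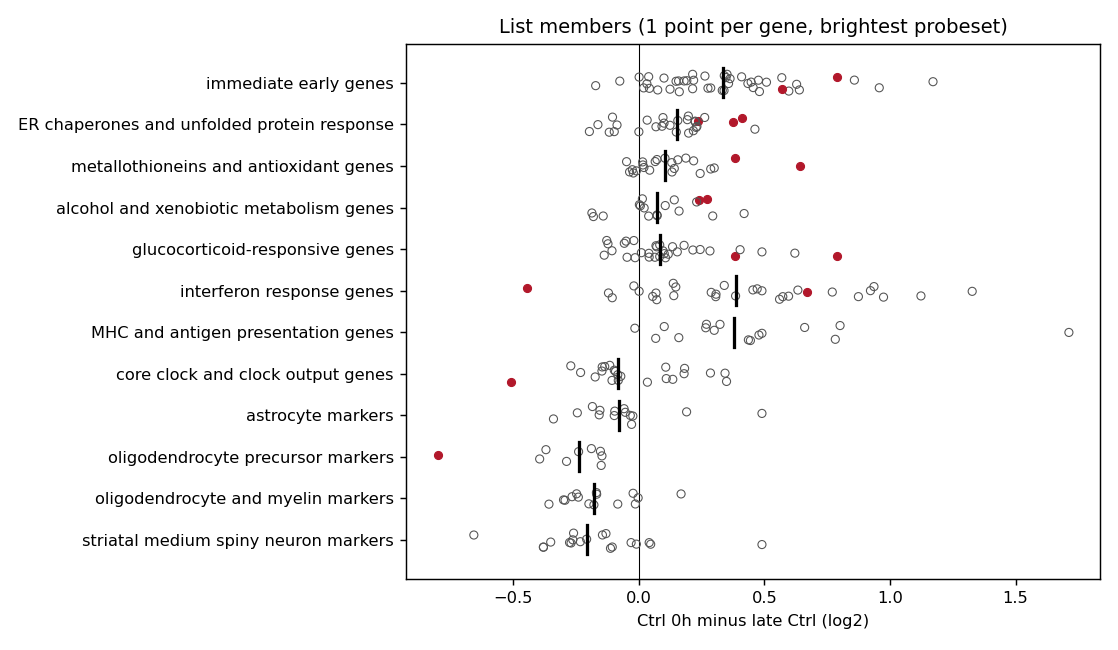
Ctrl 0h minus late Ctrl (x axis, log2) of each member of 12 gene lists (rows), read from the brightest probeset, with filled points for FDR ≤ 0.01 and a bar at the list median. Immediate early genes have a median of 0.34, interferon response genes 0.385, and oligodendrocyte precursor markers -0.24, while few members are filled.

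Over all lists, 17 pathway genes and 1 cell type marker (Gpr17) out of 774 measured list genes passed on their brightest probeset, a share of 2.33% that is near the 2.1% of all genes. Glucocorticoid-responsive genes, which follow the adrenal stress hormone, had a median of 0.08 with 2 of 32 rising (Dusp1 and Mt1, both shared with other lists), compared to 0.40 and 16 rising in CIE mice, and in 6 genes the Ctrl difference was lower than the CIE difference. Of all genes, 1.19% rose in Ctrl mice, 4.69% rose in CIE mice and 1.35% had the lower Ctrl difference. Respiratory chain genes (43), cytosolic ribosomal proteins (32) and GABA-A receptors (10) had medians of 0.03, 0.01 and 0.04 with 0 passing. Heat shock proteins of the cytosol, hypoxia-responsive genes, and fasting and lipid fuel genes likewise had 0 passing, with medians of 0.05, 0.04 and -0.02. Markers of striatal neurons, a neighboring tissue, had a median of -0.21 in Ctrl mice and 0.285 in CIE mice, with 0 of 19 passing in either. Single mice stood out in the mean of this list. It ranged from 7.86 to 8.24 in Ctrl 0h, 7.87 to 8.56 in Ctrl 72h and 7.87 to 9.13 in Ctrl 7d mice. The highest of these were Ctrl 7d mice 22 (9.13) and 80 (8.85). In CIE mice it ranged from 8.04 to 9.75 at 0h, 7.86 to 9.40 at 72h and 7.91 to 9.29 at 7d. Markers of excitatory neurons, interneurons, microglia, endothelial cells, pericytes, choroid plexus and blood cells had medians between -0.09 and 0.06 with 0 passing. Meningeal fibroblast markers had a median of 0.13, with 10 of 13 positive and 0 passing, and a median of -0.20 in CIE mice with 1 rising. Among them Slc6a13 and Ptgds read 7.76 and 14.27 in Ctrl 0h mouse 56, where the other Ctrl 0h mice read at most 5.69 and 13.41. The part of dissection or cell makeup in the differences above was not tested.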

How the data were processed

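RNA from the medial prefrontal cortex (PFC) of single mice was hybridized to Affymetrix Mouse Genome 430 2.0 arrays. The values that the authors deposited are log2 expression levels of probesets. RMA is named in the submitters' processing notes, and the study's methods describe RMA within hybridization batches, quantile normalization and, in PFC, ComBat adjustment for repeat group. Groups were taken from the sample titles. The deposited log2 values were used without filter or scaling, and 0 value columns were left out. All 47 arrays entered 1 limma model of 8 group means (limma 3.58.1, R 4.3.3, data reading with data.table version 1.17.8), and contrasts were called at a Benjamini-Hochberg FDR ≤ 0.01 over all 45037 probesets. Every adjusted p is from that fit unless another is named. The script was tested on simulated data. Probesets with 1 symbol (34945, updated through RefSeq genes of GRCm38.p6) covered 18193 genes, 932 carried several symbols and 9160 none. List genes were read from the probeset of highest mean, with cross-hybridization suffixes last. Promoter sequences are from RefSeq (GRCm38.p6). Named genes were the 12 largest rises and 12 largest falls at 0h against late harvest, the 5 largest each way in each other contrast, and up to 4 list members that passed or the 2 of smallest p; other genes were picked with their values known. Groups compared and lists were chosen with earlier results of these data known, and an array score and the settings without mice 12, 18 or 22 were chosen after seeing the data.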

Additional observations from a re-analysis of the deposited data

Results flagged for a closer look

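Of 300 groups of mice examined over 100 probesets of named genes, 23 held a mouse far from the rest of its group by Dixon's test, where chance flags about 1 in 20 groups. In Ctrl 0h, mouse 12 stood apart in Aox1 (7.04, nearest other mouse 8.91), Etnppl (9.03, nearest 10.42), Mgst1 (8.09, nearest 9.40) and Gstm1 (9.45, nearest 10.36), where it was low, and in Dusp1 (11.89, nearest 11.61) and Tiam2 (5.72, nearest 5.45), where it was high. Mouse 2 was high in Coa4 (6.57) and Rpl35 (13.14), mouse 20 low in Nmur2 (4.67), and mouse 56 high in Slc6a13 (7.76, nearest 5.69) and Ptgds (14.27), markers of the meninges. In Ctrl 72h, mouse 24 was high in Slc6a13 (5.84), Ptgds (14.12), Hspb8 (8.28) and Mt1 (6.07), and mouse 44 was low in Kcnn2 (9.10), Slc4a5 (3.56) and Ier5l (7.34). In Ctrl 7d, mouse 70 was low in Eed (9.14), mouse 22 low in Slco1c1 (10.82) and high in Nab2 (7.85), mouse 28 high in Ptgds (13.77) and mouse 46 high in Fos (11.16, nearest 9.97).

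The Ctrl difference between 0h and late harvest departed from the CIE difference, by the contrast of both in limma at FDR ≤ 0.01, for 19 named genes. Over all probesets 1043 of 45037 did so (2.32%). The 5 largest each way were named because they passed this contrast, so the 19 are partly set by that choice. The difference was higher in Ctrl mice for Homer1 (1.70), Npas4 (1.60), Coa4 (1.34), Fcrls (1.27), Klf10 (1.16), Nat8f5 (0.93), Sim2 (0.73) and Kl (0.46). It was lower in Ctrl mice for Plin4 (-3.18), Ccnd3 (-1.38), Arrdc2 (-1.31), Gm19439 (-1.28), Cd44 (-1.27), Nmur2 (-1.05), Dbp (-0.78), Spg7 (-0.78), Itga3 (-0.69), Phlda2 (-0.65) and Tyms (-0.43). For Plin4, a lipid droplet protein, the Ctrl difference was -0.05 (adjusted p = 0.95) and the CIE difference 3.13 (adjusted p = 1.9e-10), and for Fcrls, a microglial receptor, they were -0.09 (adjusted p = 0.75) and -1.35 (adjusted p = 2.9e-09).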

How the results depend on the processing

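Counts are given in the order Ctrl 0h minus late Ctrl, 0h minus 72h, 0h minus 7d, and 7d minus 72h. They were 1052, 986, 65 and 1 as reported, 100, 122, 0 and 0 with only the 18 arrays in the fit (7 leading, 4 list and 0 marker genes), and 633, 620, 1 and 1 with the 24 Ctrl arrays. Array weights gave 2860, 2259, 1007 and 2 (CIE 5149, difference from CIE 3119, 37 list and 7 marker genes), probesets of mean log2 ≥ 6 alone 96, 56, 3 and 0 (CIE 1543, difference 231, 8 leading and 7 list genes), and an FDR ≤ 0.05 gave 3296, 3040, 582 and 2 (CIE 6405, difference 3212). Marker genes that passed were 2 with late arrays as 1 group, 3 with a trended robust fit, 4 with repeat group as a term, and 2 with the striatal or the myelin marker mean as a term, where the latter gave 3 for 7d minus 72h. Settings chosen after seeing the data gave 2615 (0h minus late), 1269 (0h minus 7d), 0 (7d minus 72h) and 1873 (difference from CIE) without mice 18 and 22 (28 list and 6 marker genes). They gave 0, 0, 0 and 0 with the array score (difference 69; 0 leading, list and marker genes), 0, 0, 3 and 0 with the score and mean log2 ≥ 6 (CIE 1608, difference 38), and 18, 2 and 19 without mouse 12 with the score (5 leading and 1 list gene). In that last setting Ucp3 changed sign (0.002). Leaving out 1 mouse at a time gave 603 (without Ctrl 0h mouse 48) to 1668 (without Ctrl 7d mouse 18), 596 to 875, 0 to 409, and 0 to 1, with 19 to 24 leading, 7 to 27 list and 1 to 5 marker genes. Centring, renewed quantile normalization and the other settings kept all counts within 1.5 times. Causes were not tested. No paired analysis was possible because mouse numbers are not shared between groups.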
